A study of Rattus norvegicus with 24 samples.

Results

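The genes described here are Glul, Slc1a3, Slc1a2, Slc1a1, Aqp4, Kcnj10, Rlbp1 and Car2, 8 genes that carry out glutamate recycling, water and potassium handling, retinoid binding and acid-base buffering in the retina. Every array probe whose RefSeq accession belonged to one of these symbols was taken, whatever its values. There were 8 such probes, for 7 of the 8 genes, among 4675 probes that could be named for 4013 genes. Slc1a2 had 2 probes, Rlbp1 (the retinaldehyde-binding protein of Mueller glia) was not named by any probe here and has no value, and 7 probes of 6 genes passed the limit on dim probes.

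Retinal RNA came from male Sprague Dawley rats. Diabetes was induced with streptozotocin (STZ), which kills pancreatic beta cells, whereas controls were injected with vehicle alone. Retinas were taken 1 month or 3 months after injection from STZ rats and from controls of the same age, which made 4 groups of 6 biological replicates, each on its own CodeLink rat whole genome array. The table of animals in the study lists fewer rats than the labels give arrays for the earlier control group, and all arrays were used. The age of the rats was not given in the sources used here beyond this time.

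Mueller glia span the whole thickness of the retina and keep its extracellular space in order. They take up the glutamate released by photoreceptors and bipolar cells, turn it into glutamine with glutamine synthetase, carry potassium away from active neurons through Kir4.1 and move water through aquaporin-4. Loss of these functions is a known feature of reactive Mueller glia in retinal disease. The retina was measured whole, so fewer cells of a type and less RNA per cell cannot be told apart. Slc1a1 and Slc1a2 are also expressed by retinal neurons.

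Each value is the log2 of the background-subtracted intensity of a spot divided by the median of the rat probes on its array, so that 0 is the median probe. The arrays of the time points and groups differed as a whole. The 5th percentile of an array was 3.69 to 5.02 percent of its median at 1 month, 24.3 to 37.2 percent on 3 month control arrays and 25.7 to 34.0 percent on 3 month STZ arrays. The interquartile range of log2 intensity was 3.36 to 3.67 at 1 month, 1.48 to 2.23 on 3 month control arrays and 2.07 to 2.70 on 3 month STZ arrays. At 3 months the median STZ minus control difference of all 22025 tested probes was 0.44 on the log2 scale, against 0.01 at 1 month, so a member's value is read beside that shift. The 5 tested rod genes of a list of 12 markers were above the intensity limit on all 24 arrays, and their summed scaled intensity ranged from 179 to 503 over the arrays.

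**Figure D1:**
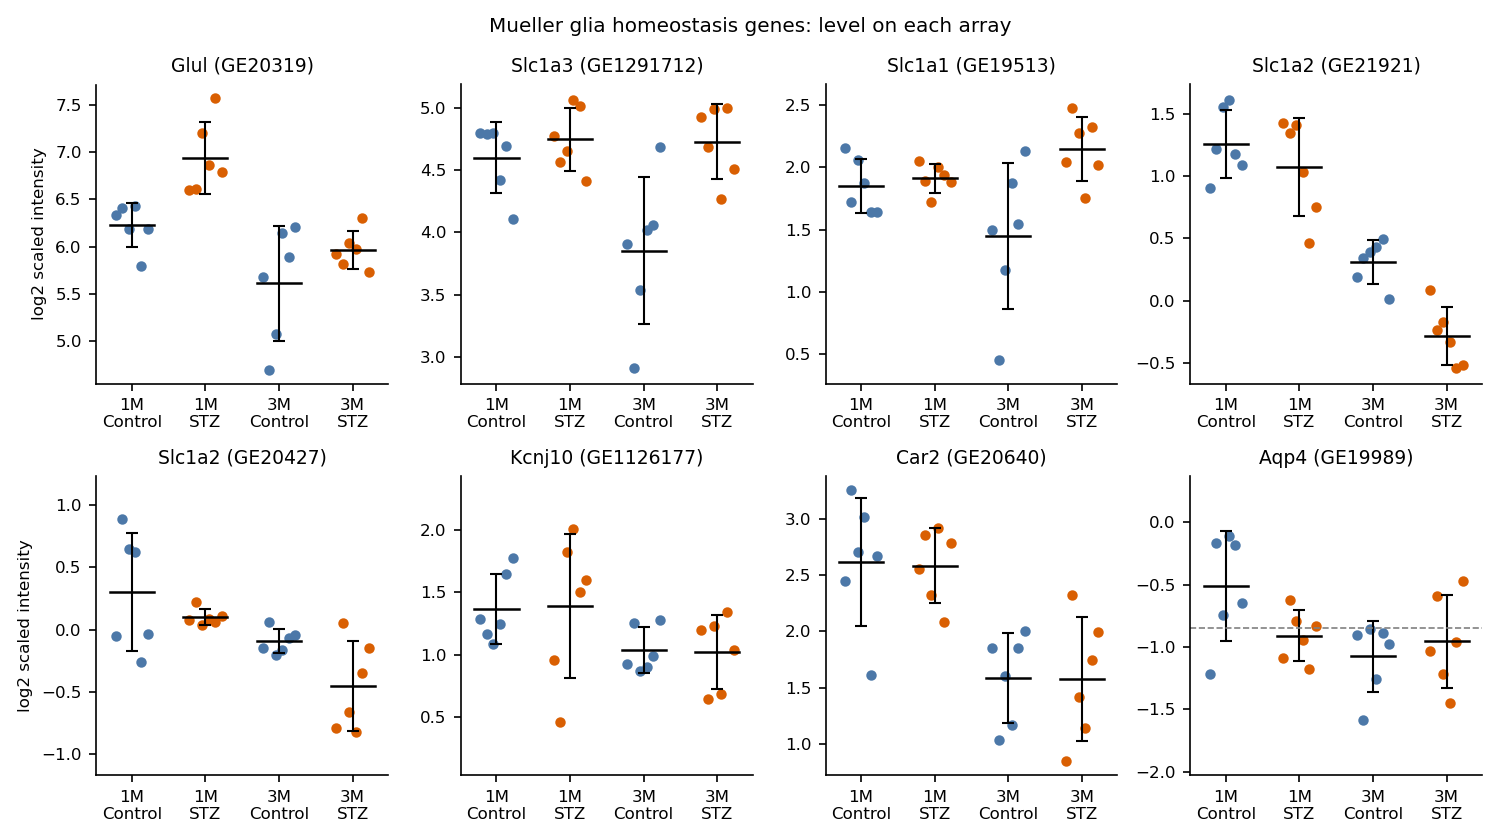
Log2 scaled intensity (y axis) of each member probe on each of the 24 arrays by group (x axis), control arrays in blue and STZ arrays in orange, with the group mean and SD in black and, for Aqp4, the intensity limit as a dashed line. All 6 Glul values of 1 month STZ retinas lay above all 6 controls, and the Slc1a2 probe GE21921 was lowest in 3 month STZ retinas, at -0.54 to 0.08 against 0.01 to 0.50 in the controls.

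Glul encodes glutamine synthetase, the enzyme by which Mueller glia make glutamine. Its probe GE20319 read 5.80 at the lowest, 6.26 at the median and 6.43 at the highest in 1 month control retinas. In 1 month STZ retinas it read 6.60, 6.83 and 7.57. All 6 STZ arrays were above all 6 control arrays, which was so for 74 of the 22025 tested probes (0.336 percent). The mean difference was 0.72 on the log2 scale (SE 0.21, 95% confidence interval 0.28 to 1.16), 1.64-fold, and stood at the 99.8th percentile of all tested probes. An exact two-sided permutation test of this probe alone gave p = 0.00216, the smallest that 6 against 6 arrays allow. Over all probes the limma p of 0.00233 became a Benjamini-Hochberg adjusted p of 0.744, and Glul was not called at 1 month.

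The 1 month difference of Glul was positive under every setting tried. It was 0.47 after quantile normalization, where 3 of 6 STZ arrays were above all controls (exact permutation test, p = 0.0801). On the deposited intensity without scaling it was 0.43, where 2 of 6 were (exact permutation test, p = 0.297). The intensity before scaling was 18928 to 34646 (median 23031) on the 1 month STZ arrays and 8995 to 29072 (median 23903) on the controls. The unscaled median was thus slightly lower in STZ retinas. The brightest spot of a 1 month array read between 26976 and 60278. Whether the brightest spots were near the scanner's ceiling was not tested, since no saturation flags were used.

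At 3 months Glul read 4.69, 5.78 and 6.21 (lowest, median and highest) in control retinas and 5.73, 5.95 and 6.31 in STZ retinas. The groups overlapped, with 1 of 6 STZ arrays above all controls and a difference of 0.35 (SE 0.21, limma adjusted p = 0.160), below the 0.44 of the median probe. The sign of this difference depended on the scaling, being -0.45 after quantile normalization (limma adjusted p = 0.0920) and -0.26 on the deposited intensity. No direction is given for Glul at 3 months.

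Slc1a3 encodes GLAST, the main glutamate transporter of Mueller glia. At 1 month its probe GE1291712 read 4.11, 4.74 and 4.80 in control and 4.41, 4.71 and 5.06 in STZ retinas, a difference of 0.15 (SE 0.21). The ranges overlapped, with 2 of 6 STZ arrays above all controls. At 3 months it read 2.91, 3.96 and 4.69 in control retinas and 4.27, 4.81 and 5.00 in STZ retinas, and 3 of 6 STZ arrays were above all controls. Slc1a3 was higher in 3 month STZ retinas by 0.88 (SE 0.21, 1.83-fold, limma adjusted p = 0.00209), at the 91.7th percentile of all probes and 0.43 above the median probe.

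Slc1a1 encodes EAAC1, a glutamate and cysteine transporter found mainly in neurons. Its probe GE19513 read 1.64, 1.80 and 2.15 in 1 month control retinas and 1.72, 1.91 and 2.05 in 1 month STZ retinas, with every STZ array inside the control range. In 3 month control retinas it read 0.45, 1.52 and 2.13, and in 3 month STZ retinas 1.75, 2.16 and 2.47. The 3 month groups overlapped in part, since 3 of 6 STZ arrays were above all controls. The 3 month difference was 0.70 (SE 0.19, 1.63-fold, limma adjusted p = 0.00520), at the 79.5th percentile and 0.26 above the median probe.

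The calls of Slc1a3 and Slc1a1 depended on how the arrays were scaled and the background taken. After quantile normalization the 3 month differences were 0.18 and 0.29 (limma adjusted p = 0.339 and 0.211), while the median probe moved to 0.16. On the deposited intensity without scaling they were 0.26 and 0.08, with the median probe at -0.17. When the 5th percentile was first subtracted on every array, they were 0.82 and 0.72, both called, but with the bacterial median subtracted instead they were 0.50 and 0.52 and neither was called. With array spread as a covariate they were 0.23 and 0.03 and not called, but that setting called 0 of all 22025 probes. With array brightness Slc1a1 was 0.61 and not called. The test named in the methods of the study, applied to each time point alone with unequal variances, called neither of them at p under 0.01. Each was positive under all of these settings.

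Slc1a2 encodes GLT-1, a glutamate transporter of cone and bipolar cells in the retina and of astrocytes in the brain. Its brighter probe GE21921 read 0.91, 1.19 and 1.61 in 1 month control retinas and 0.47, 1.19 and 1.43 in 1 month STZ retinas, a difference of -0.19 (SE 0.17) with overlapping groups. At 3 months it read 0.01, 0.37 and 0.50 in control retinas. In 3 month STZ retinas it read -0.54, -0.29 and 0.08, and 5 of 6 STZ arrays were below all controls. Slc1a2 fell by 0.60 at 3 months (SE 0.17, limma adjusted p = 0.00573), while the median probe was 0.44 higher, and only 1.91 percent of all tested probes were as low or lower.

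Unlike the other members called, Slc1a2 was lower under each of the 5 scalings. The difference at 3 months was -0.85 with the 5th percentile subtracted, -0.84 after quantile normalization, -1.21 on the deposited intensity and -1.63 with the median of the bacterial probes subtracted, and it was called each time. With array brightness or array spread as a covariate it was -0.47 and -0.44 and was not called (limma adjusted p = 0.0701 and 0.597). Brightness left 18.4 percent of all probes called at 3 months. Spread left 0 of 22025, so the missing call there says nothing about Slc1a2.

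The fall in Slc1a2 took place near the floor of the arrays. Set against the 62 bacterial probes, which have no rat target, its intensity exceeded their 95th percentile on all 12 arrays at 1 month, on 3 of 6 control arrays at 3 months and on 0 of 6 STZ arrays at 3 months. The 3 month STZ level is thus an upper bound, and the size of the fall depends on how the background is taken. The second probe, GE20427, read -0.20, -0.10 and 0.06 in 3 month control and -0.82, -0.50 and 0.06 in 3 month STZ retinas. Its difference was -0.36 (SE 0.18) and missed the limit (limma adjusted p = 0.0838), with 4 of 6 STZ arrays below all controls and 0 of 12 arrays at 3 months past that bacterial level.

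**Figure D2:**
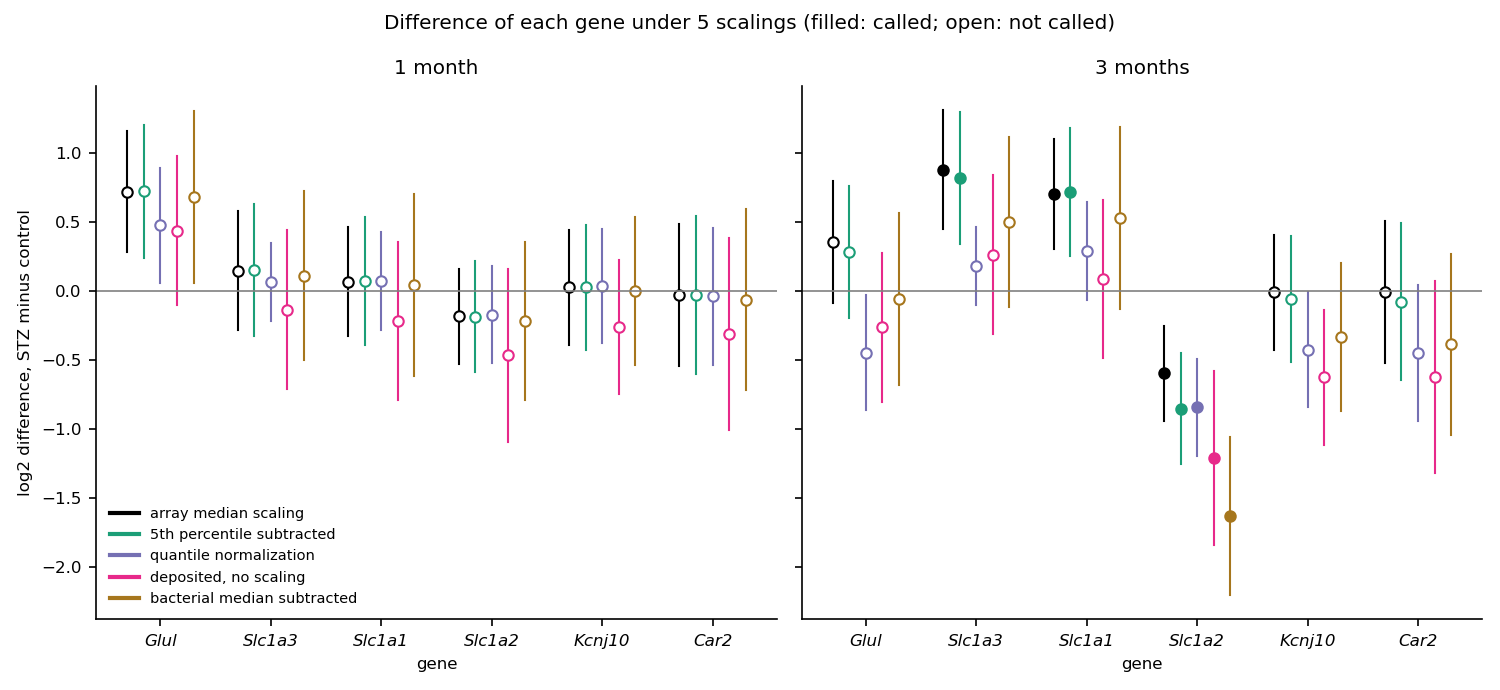
Log2 difference between STZ and control retinas (y axis) of each tested gene (x axis) at 1 and 3 months under 5 scalings (colors), with 95% confidence intervals as lines, filled circles for called and open circles for uncalled differences. Slc1a2 was called under all 5 scalings at 3 months, from -0.60 to -1.63, whereas Glul at 3 months ran from 0.35 to -0.45.

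Kcnj10 encodes Kir4.1, the inward rectifier through which Mueller glia take up and release potassium. Its probe GE1126177 read 0.87, 0.96 and 1.28 in 3 month control retinas and 0.65, 1.12 and 1.34 in 3 month STZ retinas. The control range lay inside the STZ range, and the difference was -0.01 (SE 0.20, 95% confidence interval -0.43 to 0.40), at the 17.1th percentile of all probes. At 1 month the difference was 0.02 (SE 0.20), with 0.46 to 2.01 in STZ and 1.09 to 1.78 in control retinas. After quantile normalization the 3 month value was -0.43 and all 6 STZ arrays were below all 6 controls (exact p = 0.00216), and without scaling it was -0.63 with 5 of 6 below (exact p = 0.0108). Neither was called by limma over all probes, and the place of Kcnj10 thus depended on the scaling.

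Car2 encodes carbonic anhydrase 2, the cytosolic enzyme that interconverts carbon dioxide and bicarbonate. Its probe GE20640 read 1.03, 1.73 and 2.01 in 3 month control retinas and 0.84, 1.58 and 2.32 in 3 month STZ retinas. The STZ arrays spread on both sides of the controls, with a difference of -0.01 (SE 0.25, 95% confidence interval -0.52 to 0.51). At 1 month it read 1.61 to 3.26 in control and 2.08 to 2.92 in STZ retinas, a difference of -0.03 (SE 0.25). The near-zero value at 3 months holds for scaling to the array median. It was -0.45 after quantile normalization and -0.62 without scaling, each with 3 of 6 STZ arrays below all controls (exact p = 0.0887 and 0.0498), and -0.39 with the bacterial median subtracted, none of them called by limma.

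Aqp4 encodes aquaporin-4, the water channel of the Mueller cell endfeet. Its probe GE19989 had a median scaled intensity of 0.538, just under the limit of 0.554, and was not tested across probes. It passed the bacterial level on 1 of the 24 arrays, a 1 month control. It read -1.21, -0.42 and -0.11 in 1 month control retinas and -1.17, -0.89 and -0.62 in 1 month STZ retinas, where every STZ array was inside the control range. At 3 months it read -1.58, -0.94 and -0.85 in control and -1.45, -0.996 and -0.47 in STZ retinas. The exact permutation test gave p = 0.0736 at 1 month and p = 0.537 at 3 months, and no change of Aqp4 was detectable at this intensity.

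Counted by gene, 3 of the 6 tested members were called at 3 months, beside 54.1 percent of all tested probes (11911 of 22025). Higher calls were made for 2 members against 50.5 percent of all probes, and a lower call for 1 member, Slc1a2, against 3.55 percent. The share of members called is close to the background, and nothing is read from it. STZ and control arrays did not overlap at 3 months for 10.2 percent of all probes and for 0 of the 7 member probes. The methods' test called 1 member at 3 months, Slc1a2, beside 16.9 percent of all probes.

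At 1 month limma called 0 of 6 members, beside 2 of all 22025 probes (0.00908 percent), and 1 member, Glul, had an unadjusted p under 0.05, as did 927 of all probes. The methods' test without adjustment called Glul alone, beside 1.19 percent of all probes. The interaction, which asks whether the STZ effect at 3 months differed from that at 1 month, was called for 0 of 6 members beside 15.5 percent of all probes. It was largest for Slc1a3, at 0.73 (SE 0.30, limma adjusted p = 0.0766), followed by Slc1a1 at 0.64 (adjusted p = 0.0886 by limma), and these 2 members had an unadjusted p under 0.05, as did 8954 of the 22025 probes. Without the sixth 3 month control array, which raised the share of all probes called to 41.9 percent, both passed, at 0.90 and 0.77 (limma adjusted p = 0.0135 and 0.0205), and without the fourth 3 month STZ array (24.9 percent of all probes called) Slc1a3 passed at 0.82. The share also fell with other arrays left out, to 3.45 percent without the sixth 3 month STZ array, where 0 members passed.

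A difference in log2 level between members on the same array removes a factor that multiplies all spots of that array. It does not remove an added background or a difference in spread, and the interquartile range differed between the 3 month groups as given above, whose part here was not tested. The Slc1a3 minus Glul difference was higher by 0.52 on the log2 scale in 3 month STZ retinas, at -1.23 ± 0.26 (SD, n = 6) against -1.76 ± 0.22 (SD, n = 6) in controls (exact two-sided permutation test, p = 0.00649, Benjamini-Hochberg adjusted p = 0.0195 over 6 tests). It was above all controls on 5 of 6 STZ arrays. At 1 month it moved the other way, by -0.57 (exact p = 0.0260, adjusted p = 0.0519), with 3 of 6 STZ arrays below all controls. That the shifts at the 2 times differ from each other was not tested.

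The Slc1a2 minus Slc1a3 difference was lower in 3 month STZ retinas by 1.47, at -5.01 ± 0.32 (SD, n = 6) against -3.54 ± 0.69 (SD, n = 6) by the exact test (p = 0.00433, adjusted p = 0.0195), and 5 of 6 STZ arrays were below all controls. Since the Slc1a2 probe did not exceed the bacterial level on any 3 month STZ array or on 3 of 6 controls, this shift has Slc1a2 near the floor, its size is not that of a measured ratio, and it includes the higher level of Slc1a3. It did not pass at 1 month (-0.33, exact p = 0.253). Slc1a1 minus Slc1a3 differed by -0.17 at 3 months (exact p = 0.156) and by -0.08 at 1 month (exact p = 0.554). Both 3 month shifts that passed also did so after quantile normalization, at 0.63 and -1.02 (exact test, adjusted p = 0.0130 each). Of these pairs, Slc1a3 and Glul were both above the bacterial level on all 24 arrays.

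**Figure D3:**
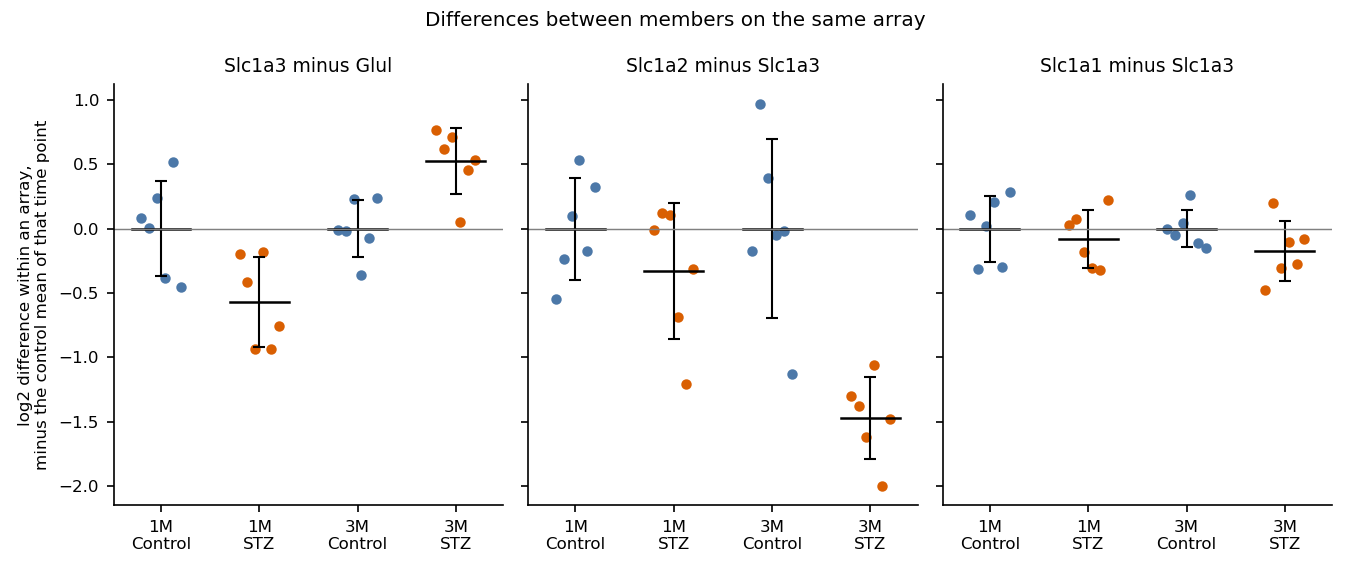
Difference of log2 scaled intensity between pairs of members on the same array (y axis), set to 0 at the control mean of each time point, by group (x axis), with control arrays in blue, STZ arrays in orange and group mean and SD in black. At 3 months Slc1a3 minus Glul was 0.52 higher and Slc1a2 minus Slc1a3 was 1.47 lower in STZ than in control retinas.

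The time points were compared within each treatment, where the median of all probes was itself -0.52 in control and -0.07 in STZ retinas (3 months minus 1 month). In control retinas 4 of 6 members were called lower and 0 higher, beside 68.8 percent of all probes called, a share from which nothing is read about the members, with Car2 at -1.03 (SE 0.25), Slc1a2 at -0.95 (SE 0.17), Slc1a3 at -0.75 (SE 0.21) and Glul at -0.61 (SE 0.21) by limma. In STZ retinas 3 of 6 were called, all lower, beside 44.0 percent of all probes, with Slc1a2 at -1.36, Car2 at -1.01 and Glul at -0.98. After quantile normalization only Slc1a2 was called in control retinas (-0.59), beside 60.1 percent of all probes. In STZ retinas Slc1a2, Glul and Car2 were then called (-1.26, -1.22 and -0.85), beside 41.2 percent of all probes. The direction turned with the background, since with the bacterial median subtracted Glul (0.87) and Kcnj10 (0.64) were called higher in control retinas, and Slc1a1 (1.19) and Slc1a3 (1.08) higher and Slc1a2 (-1.99) lower in STZ retinas. Time since injection and the making of the arrays cannot be told apart here, since each time point had arrays of its own that differed in spread.

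The orders of group means given here are for scaling to the array median. By group mean, Glul was highest in 1 month STZ retinas, followed by 1 month control, 3 month STZ and 3 month control. The first 2 of these steps exceeded the SD of either group, and the last did not. With the bacterial median subtracted Glul was higher at 3 months (7.26 control, 7.20 STZ) than at 1 month (6.39 control, 7.07 STZ). After quantile normalization 3 month control (6.12) was above 3 month STZ (5.67). For Slc1a2 (GE21921) both groups at 1 month were above both at 3 months, with controls above STZ at each time, and the last 2 of the 3 steps in this order were larger than either SD. For Slc1a3 and Slc1a1 the 3 month control retinas were lowest, by more than the larger SD for Slc1a3, and no step of Slc1a1 exceeded it. With the bacterial median subtracted 3 month control was instead above both 1 month groups. It read 5.45 against 4.76 (control) and 4.87 (STZ) for Slc1a3, and 2.67 against 1.97 and 2.01 for Slc1a1. After quantile normalization Slc1a1 was also higher in 3 month (1.79) than in 1 month control retinas (1.67). Kcnj10 and Car2 had a single step beyond their spread, that between the time points, and Aqp4 had none.

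Other genes of the same pathways gave a mixed picture at 3 months. Among 11 tested genes of glutamate and glutamine handling (median 0.19), limma called 3 higher and 1 lower. Of all probes, 50.5 percent were called higher and 3.55 percent lower. Got2, the mitochondrial aspartate aminotransferase, was highest at 0.80 (limma adjusted p = 0.00304). After quantile normalization Got2 was at 0.11 and not called, and this list had 0 higher calls and 1 lower.

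Among 12 tested water and potassium genes (median 0.30), 5 passed as higher and 0 as lower, against 50.5 and 3.55 percent of all probes. Atp1b2, the glial beta subunit of the sodium-potassium pump, was highest at 0.92, and Kcnj12, another inward rectifier, read -0.31 and was not called (limma adjusted p = 0.0648). After quantile normalization 1 gene of this list was called higher, Atp1b2, and 1 lower, Kcnj12 at -0.41. With the 5th percentile subtracted Kcnj12 was also called lower, at -0.44. The 6 acid-base and lactate genes (median 0.34) included 3 higher and 1 lower call, from Car4, a membrane-bound carbonic anhydrase, at -0.54 to the anion exchanger Slc4a3 at 0.65. After quantile normalization 0 of them were called higher and 1 lower, Car4 at -0.81 (median of the list -0.13). The 4 tested retinoid genes (median 0.57) included 3 higher calls, from Rpe65, the isomerase of the pigment epithelium, at -0.10 to Degs1 at 0.69. After quantile normalization 1 retinoid gene was called higher (median of the list 0.09). At 1 month 0 genes of these 4 lists were called by limma.

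Markers of Mueller glia other than the members were counted beside them. At 3 months 10 of the 11 tested passed as higher, against 50.5 percent of all probes, the median being 0.76, and their summed scaled intensity was 43.6 to 137 in control and 144 to 223 in STZ retinas, without overlap. Slc6a11, a GABA transporter, was highest at 2.36, and Id3, a transcriptional regulator, lowest at 0.35 and not called. After quantile normalization 6 of the 11 were called higher, with a median of 0.65, and Slc6a11 was among them at 2.01. The rise of this GABA transporter on the arrays is opposite to the qPCR of the study. There the authors reported a reproducible decrease of the same gene at the later time point, across sets of animals. The cause of this disagreement was not tested, and the direction of this gene is not settled here. Reactive glia genes numbered 9 tested, 8 of them higher (median 1.47), from Stat3 at 0.39, not called, to Timp1, an inhibitor of metalloproteinases, at 2.80, and 8 were also called after quantile normalization. Their summed intensity was 26.0 to 60.7 in control and 98.7 to 404 in STZ retinas.

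Markers of other retinal cells moved beside the members as well, and their part in the members' values was not tested. At 3 months the genes called higher were 4 of 6 for astrocytes, 3 of 4 for oligodendrocytes, 3 of 4 for microglia, 3 of 3 for endothelium, 5 of 6 for bipolar and amacrine cells, 3 of 5 for ganglion cells, 2 of 2 for cones, 2 of 5 for rods, 7 of 8 for lens, 1 of 3 for erythrocytes and 0 of 2 for pigment epithelium, and 0 genes of these lists were called lower. Of all probes, 50.5 percent were called higher. After quantile normalization 3 genes each were called higher for astrocytes, microglia and lens, and 1 each for oligodendrocytes and erythrocytes. Higher calls were then 0 for endothelium, bipolar and amacrine cells, ganglion cells, cones, rods and pigment epithelium. Lower calls were then made for 2 rod genes and 1 bipolar or amacrine gene. The summed scaled intensity at 3 months was 36.5 to 86.5 in control and 87.0 to 128 in STZ retinas for astrocytes. For ganglion cells it was 18.3 to 38.9 and 29.1 to 48.3, and for lens 130 to 325 and 407 to 827. The groups did not overlap for lens, nor, narrowly, for astrocytes (86.5 against 87.0), beside 10.2 percent of all single probes. These and the glia sums above are of median-scaled intensity, on which the median probe was 0.44 higher in STZ retinas. Among the markers, Gfap (1.29), Cd74 of antigen-presenting cells (1.36) and Mobp of myelin (1.19) were the highest of the astrocyte, microglia and oligodendrocyte lists.

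**Figure D4:**
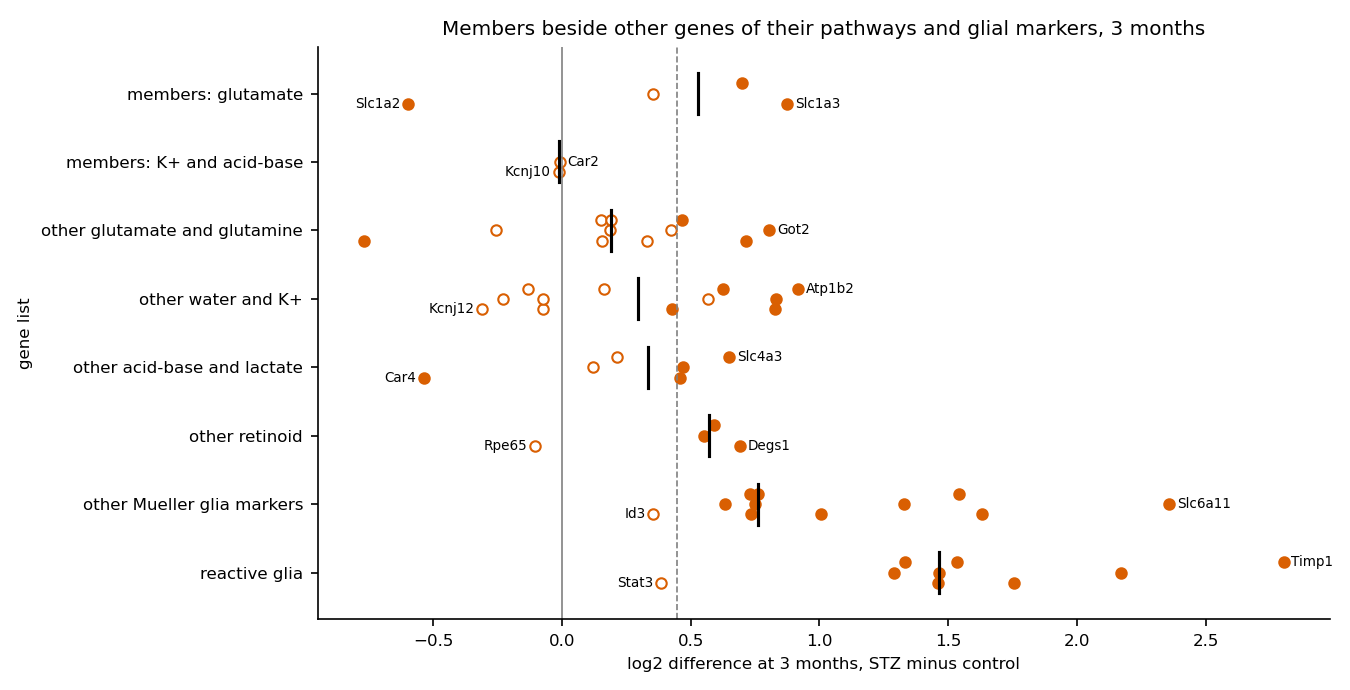
Log2 difference between STZ and control retinas at 3 months (x axis) of each tested gene in 8 lists (y axis), filled where called and open where not, with a black bar at the list's median, a solid line at 0 and a dashed line at the median of all probes, 0.44. The members lay between -0.60 and 0.88, while all 9 reactive glia genes lay between 0.39 and 2.80.

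Over the 24 arrays, the genes whose log2 levels followed each member most closely were found by the root mean square difference after each gene's own mean was removed, among 2811 other tested genes. These values are not scaled to a member's own SD over the arrays, which ran from 0.38 for Kcnj10 to 0.68 for Car2 and Slc1a2. The members are therefore not ranked by them. Slc1a1 lay nearest to Zfyve27 (0.13) and Prkcz (0.14), and Slc1a3 to Rabep1 (0.18) and Stmn2 (0.20). Kcnj10 lay nearest to Grik5 (0.24) and Dut (0.26), Glul to Prnp (0.29) and Dync1li2 (0.31), Slc1a2 to Ifrd1 (0.30) and Scg3 (0.34), and Car2 to Polb (0.31) and Rab28 (0.32). The nearest genes of Glul had a difference of 0.25 and 0.19 at 1 month, against 0.72 for Glul. All 24 arrays share the shift between time points, which enters these values.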

How the data were processed

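Per the labels, total RNA of rat retina was amplified to biotin-labeled cRNA and hybridized to 1-color CodeLink arrays. The authors deposited the background-subtracted intensity of each spot (33911 probes, 62 of them bacterial) together with that intensity over a constant near the median of its array. Here each array's intensity was divided by the median over its 33849 rat probes, a floor of 0.01 was set, and values went to the log2 scale. Testing was limited to probes whose scaled intensity had a median over 24 arrays beyond the 35th percentile (0.554). Software flags were not used. Before scaling the median intensity was 284 (control) and 194 (STZ) at 1 month and 232 (control) and 148 (STZ) at 3 months, and the number of arrays limits the precision.

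Groups were taken from the labels, and 1 model of all 4 was fitted (limma 3.58.1, R 4.3.3). A call needed an adjusted p (Benjamini-Hochberg, over all tested probes) under 0.05 and a 1.2-fold difference. The probe with the highest mean level stood for a gene. Within-array differences were tested by exact permutation of the arrays of a time point. Pairs with Rlbp1 or Aqp4 were not run. The model was tested on simulated data. Symbols came from RefSeq accessions, and coordinates are left out since no build is named in the files.

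Members, gene lists and tests were chosen with earlier results of these data known. Named genes are all members with every probe, the highest and lowest gene of each list at 3 months, and the 2 nearest genes of each member. Lens and pigment epithelium genes, and the extremes of the remaining marker lists, are given as counts only, apart from those named. The single value of 1 listed gene is not reported here, and the counts and medians include it. Alternatives were quantile normalization, the deposited scaled values, subtraction of the 5th percentile, other filters and floors, no fold limit, the methods' test, separate fits, the replicate number as a block, array weights, a variance trend, brightness or spread as a covariate, the mean of a gene's probes and each array left out. The deposited intensity without scaling and subtraction of the bacterial median were chosen after seeing the data, as were all settings beyond the 2 scalings and leaving out arrays for the comparisons of the time points.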

Additional observations from a re-analysis of the deposited data

How the results depend on the processing

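The 3 members called at 3 months fell to 1 with quantile normalization, with the methods' test (both with and without adjustment), with brightness as a covariate, on unscaled intensity and with the bacterial median subtracted, and to 0 with array spread as a covariate. The share of all probes called fell too, from 54.1 percent to 31.5 (quantile), 16.9 and 8.72 (methods' test without and with adjustment) and 18.4 (brightness). It was 4.4 percent on unscaled intensity, 25.8 with the bacterial median subtracted and 0 with array spread. Nothing is read from these drops about the members. The count of members was 3 without any 1 array. At 1 month the count was 1 (Glul) with the methods' test without adjustment (1.19 percent of all probes called) and with array weights (1.63 percent), and 0 without any 1 array. The interaction count was 1 with quantile normalization (Glul, -0.92) and with the bacterial median subtracted, 2 with array weights, and 0 to 2 with 1 array left out. Of all probes the interaction called 10.8 percent (quantile), 7.69 percent (bacterial median) and 46.9 percent (array weights). For 3 month against 1 month control arrays the 4 calls, all lower, became 1 with quantile normalization, 2 with the 5th percentile subtracted, 0 with array spread as a covariate, 2 with the bacterial median subtracted (both higher) and 4 to 5 with an array left out. The share of all probes called for control arrays was then 60.1 (quantile), 55.0 (5th percentile), 1.22 (spread) and 57.2 percent (bacterial median). For STZ arrays the 3 became 2 with array spread (1 higher), 3 with the 5th percentile subtracted (1 higher), 3 with the bacterial median subtracted (2 higher) and 3 to 4 with an array left out. For STZ arrays the share of all probes was 21.7 (spread), 42.0 (5th percentile) and 52.6 percent (bacterial median). Of single genes at 3 months, Glul turned to -0.45 (quantile), -0.26 (unscaled) and -0.061 (bacterial median), Kcnj10 to 0.12 (array weights) and Car2 to 0.042 (brightness). At 1 month Kcnj10 turned to -0.12 (brightness), -0.26 (unscaled) and -0.0058 (bacterial median), Slc1a1 to -0.0037 (array weights) and -0.22 (unscaled), and Slc1a3 to -0.14 (unscaled). The interaction of Car2 turned to -0.41 (quantile), -0.050 (5th percentile), -0.66 (spread), -0.31 (unscaled) and -0.32 (bacterial median), that of Slc1a1 to -0.048 (spread) and that of the Slc1a2 probe GE20427 to 0.18 (array weights). With 1 array left out, Car2 ran from -0.16 to 0.14 at 3 months, -0.23 to 0.10 at 1 month and -0.13 to 0.23 in the interaction, and Kcnj10 from -0.077 to 0.062, -0.10 to 0.21 and -0.22 to 0.088. The within-array Slc1a1 minus Slc1a3 shift turned to 0.11 at 3 months and 0.0062 at 1 month with quantile normalization, and ran from -0.25 to -0.11 at 3 months with 1 array left out, past the threshold only without the second STZ array (adjusted p = 0.0260 by the exact test). The causes were not tested. Replicate numbers did not pair the samples (correlation of same-numbered arrays -0.17 to 0.25 at 1 month and -0.24 to 0.22 at 3 months), and with the replicate number as a block 3, 0 and 0 members were called at 3 months, 1 month and in the interaction, with the within-array shifts of 0.52 and -1.47 at adjusted p = 0.00249 and 0.00328 by limma. Dim probes were limited by the array floor: Slc1a2 did not exceed the 95th percentile of the bacterial probes on 3 of 6 control and 6 of 6 STZ arrays at 3 months, nor Aqp4 on 23 of 24 arrays.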
